A study of Homo sapiens with 12 samples.

Results

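ATG10, GABARAP, GABARAPL2, RUBCN, GLA and GNPTAB are 6 genes of autophagy and the lysosome, taken by symbol from the 1676 genes of the deposited expression table. The measurement was of polyadenylated RNA from SH-SY5Y, a human neuroblastoma cell line with neuron-like traits, taken 24 h after a tau construct had been transfected. There were 3 libraries each of Tau-K174Q, which replaces a lysine of tau by glutamine as a mimic of acetylation, Tau-S199E, which replaces a serine by glutamate as a mimic of phosphorylation, Tau-K174Q-S199E, which carries both, and Tau-WT, the wild-type protein and the study's reference. All 12 libraries were made from 400 ng of RNA with a kit that reads near the 3′ end of transcripts. All groups, Tau-WT included, received a tau construct, so every difference is between cells given different tau constructs. Neither the promoter of the constructs nor the share of cells that took them up is given in the sources used here. The labels do not say if the 3 libraries of a construct are of separate cultures, and the p-values rest on the spread between libraries, which may be technical.

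Autophagy encloses cytoplasm in a membrane, the autophagosome, which fuses with the lysosome, where acid hydrolases break its contents down. Ubiquitin-like proteins of the ATG8 family, LC3 and GABARAP among them, are attached to the growing membrane by a conjugation system, and soluble hydrolases reach the lysosome through a mannose 6-phosphate tag added in the Golgi. In neurons this route is known for the removal of protein aggregates, tau among them.

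Each gene of the table had been standardised to mean 0 and SD 1 over the 12 libraries, so values are in SD units of the gene, with no level, depth or fold size, and a gene cannot be compared with another in abundance. In bulk RNA, fewer cells of a type and less RNA per cell cannot be told apart. The table lists only genes with an adjusted p of at most 0.0499 in the authors' deposited table, for a contrast that its header does not name, and nothing can be said of genes outside it. The sign of the deposited fold change equalled that of the K174Q by S199E interaction and that of Tau-WT minus Tau-S199E in all 1676 genes. It equalled that of Tau-WT minus Tau-K174Q in 1675 genes and that of Tau-K174Q-S199E minus Tau-S199E in 1672. For Tau-K174Q minus Tau-S199E the signs were equal in 1416 genes. For Tau-K174Q-S199E minus Tau-WT they were equal in 134, so that there they were mostly opposite. Comparisons within the table are therefore not independent of the way its genes were chosen. Of the 13 noradrenergic markers listed for SH-SY5Y cells 0 were in the table, and without levels the cell line could not be checked. Of 8 markers of substrate-adherent neuroblastoma cells, CD44, SNAI2 and S100A6 were in it and all 3 rose with Tau-S199E against Tau-WT. In that comparison 90.0% of the 1676 genes had an adjusted p under 0.05, 48.3% higher, so nothing is read from this count. The mean of the 3 markers lay between 0.28 and 0.49 in Tau-K174Q libraries, 0.64 and 1.83 in Tau-S199E, -0.999 and 0.67 in Tau-K174Q-S199E, and -1.32 and -0.76 in Tau-WT libraries, and their part in the results was not tested. Library 12 of Tau-S199E had an SD over genes of 1.67, against 0.83 and 0.77 in libraries 10 and 11. Library 18 of Tau-K174Q-S199E lay 1.28 SD units from the mean of libraries 16 and 17 in the median gene, the largest such distance of the 12 libraries.

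ATG10 (ENSG00000152348) lies on chromosome 5 from 81972025 to 82276857 on the plus strand, GABARAP (ENSG00000170296) on chromosome 17 from 7240014 to 7242770 on the minus strand and GABARAPL2 (ENSG00000034713) on chromosome 16 from 75566351 to 75577881 on the plus strand. RUBCN (ENSG00000145016) lies on chromosome 3 from 197671393 to 197749727, GLA (ENSG00000102393) on chromosome X from 101397803 to 101408012 and GNPTAB (ENSG00000111670) on chromosome 12 from 101745497 to 101830938, all 3 on the minus strand (GENCODE 29, GRCh38). All 6 are protein coding. The last 500 bases of ATG10 hold 161 exonic bases of RPS23, a ribosomal protein gene on the opposite strand that is not in the table. The kit marks strand but the counting setting is not given, and without strand the reads of ATG10 and RPS23 cannot be told apart. GABARAP overlaps the coding gene AC120057.2 on the same strand. Of the 30-base words in the last 300 bases of its coding transcripts, 63.5% also occur in AC120057.2 or AC096533.1, so its value is uncertain where the counting split such reads. The share was 0% for GABARAPL2 and for GLA and 0.615% for GNPTAB, so no such word is shared by GABARAP and GABARAPL2. For ATG10 it was 12.7% and for RUBCN 5.43%, with words that occur in 963 and 1043 other genes.

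The promoters of 4 genes are shown as a description, and their part in the results was not tested. The genes are GABARAP and GABARAPL2, members of 1 family that moved in opposite directions with Tau-S199E, and RUBCN and GNPTAB. These last stood at the ends of the table in Tau-K174Q-S199E against Tau-WT with all libraries. Their ranks moved with 1 library left out, and nothing is read from them, as given further on. Of the annotated RUBCN promoters 1 is shown. The sequences are RefSeq's (GRCh38.p14), 5′ to 3′ on the strand of the gene, with capitals for the bases from the annotated start of transcription onwards.
GABARAP promoter, chr17:7242400-7242699, minus strand: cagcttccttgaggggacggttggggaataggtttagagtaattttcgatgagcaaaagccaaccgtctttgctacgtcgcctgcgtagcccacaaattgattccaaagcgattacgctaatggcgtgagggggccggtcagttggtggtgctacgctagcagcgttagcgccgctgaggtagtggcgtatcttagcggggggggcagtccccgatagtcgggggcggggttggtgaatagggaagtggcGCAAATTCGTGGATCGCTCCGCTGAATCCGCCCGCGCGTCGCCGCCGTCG
GABARAPL2 promoter, chr16:75566129-75566428, plus strand: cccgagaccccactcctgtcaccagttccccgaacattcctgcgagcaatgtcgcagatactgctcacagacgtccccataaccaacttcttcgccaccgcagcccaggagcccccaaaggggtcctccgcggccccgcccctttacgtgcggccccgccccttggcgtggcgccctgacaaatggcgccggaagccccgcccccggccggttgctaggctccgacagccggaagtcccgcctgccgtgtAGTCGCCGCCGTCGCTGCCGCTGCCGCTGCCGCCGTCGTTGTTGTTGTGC
RUBCN promoter, chr3:197749771-197750070, minus strand: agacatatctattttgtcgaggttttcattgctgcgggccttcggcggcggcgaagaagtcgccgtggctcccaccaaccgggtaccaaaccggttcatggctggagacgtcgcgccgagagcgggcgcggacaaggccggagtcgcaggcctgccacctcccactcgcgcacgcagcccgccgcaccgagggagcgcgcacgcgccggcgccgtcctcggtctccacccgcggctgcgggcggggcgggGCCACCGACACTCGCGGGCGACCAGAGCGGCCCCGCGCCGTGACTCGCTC
GNPTAB promoter, chr12:101830910-101831209, minus strand: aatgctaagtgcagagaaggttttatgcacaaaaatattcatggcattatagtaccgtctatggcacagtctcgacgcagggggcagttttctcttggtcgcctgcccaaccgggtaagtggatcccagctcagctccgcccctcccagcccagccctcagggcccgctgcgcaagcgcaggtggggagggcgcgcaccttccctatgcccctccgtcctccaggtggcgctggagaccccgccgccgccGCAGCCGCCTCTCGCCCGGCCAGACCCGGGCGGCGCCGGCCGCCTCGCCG
Factors of the TFEB family, which are known to drive lysosomal genes, bind the E-box CACGTG and the longer TCACGTG, in which each match holds the shorter motif. Searched on both strands, neither motif was in the promoters of the 6 genes, RUBCN having a pair of annotated promoters. Of all 35116 RefSeq promoters of 300 bases, 7.26% held CACGTG and 3.71% TCACGTG. Of the 30 table genes on the pathway lists described further on, 24 had a promoter in the RefSeq table, and 0 of these 24 held either motif. No match says only that these letters are not in these windows. The GABARAP window, which ends at 7242699, lies inside the GENCODE gene, which ends at 7242770. Sequence upstream of that outer start was therefore not searched.

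ATG10 is the enzyme that attaches the ubiquitin-like ATG12 to ATG5, a step needed before LC3 and GABARAP proteins can be coupled to membrane. Its standardised values were -0.20, -0.59 and 0.05 in Tau-K174Q libraries 4, 5 and 6, -1.13, -0.85 and -1.58 in Tau-S199E libraries 10, 11 and 12, 0.66, 0.40 and -0.54 in Tau-K174Q-S199E libraries 16, 17 and 18, and 0.73, 1.54 and 1.52 in Tau-WT libraries 1, 2 and 3. All 9 libraries of the substituted constructs lay below all 3 of Tau-WT. ATG10 fell with Tau-S199E by 2.45 SD units against Tau-WT (SE 0.38, adjusted p = 0.00968, linear model in limma with Benjamini-Hochberg adjustment over 1676 genes), the seventh lowest difference of the table. The difference from Tau-WT was -1.51 with Tau-K174Q (adjusted p = 0.066) and -1.09 with Tau-K174Q-S199E (adjusted p = 0.533), with 95% intervals from -2.38 to -0.64 and from -1.96 to -0.22 before adjustment. The 4 group means ran, from high to low, Tau-WT, Tau-K174Q-S199E, Tau-K174Q and Tau-S199E, and among neighbours in this order Tau-K174Q-S199E and Tau-K174Q overlapped.

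**Figure D1:**
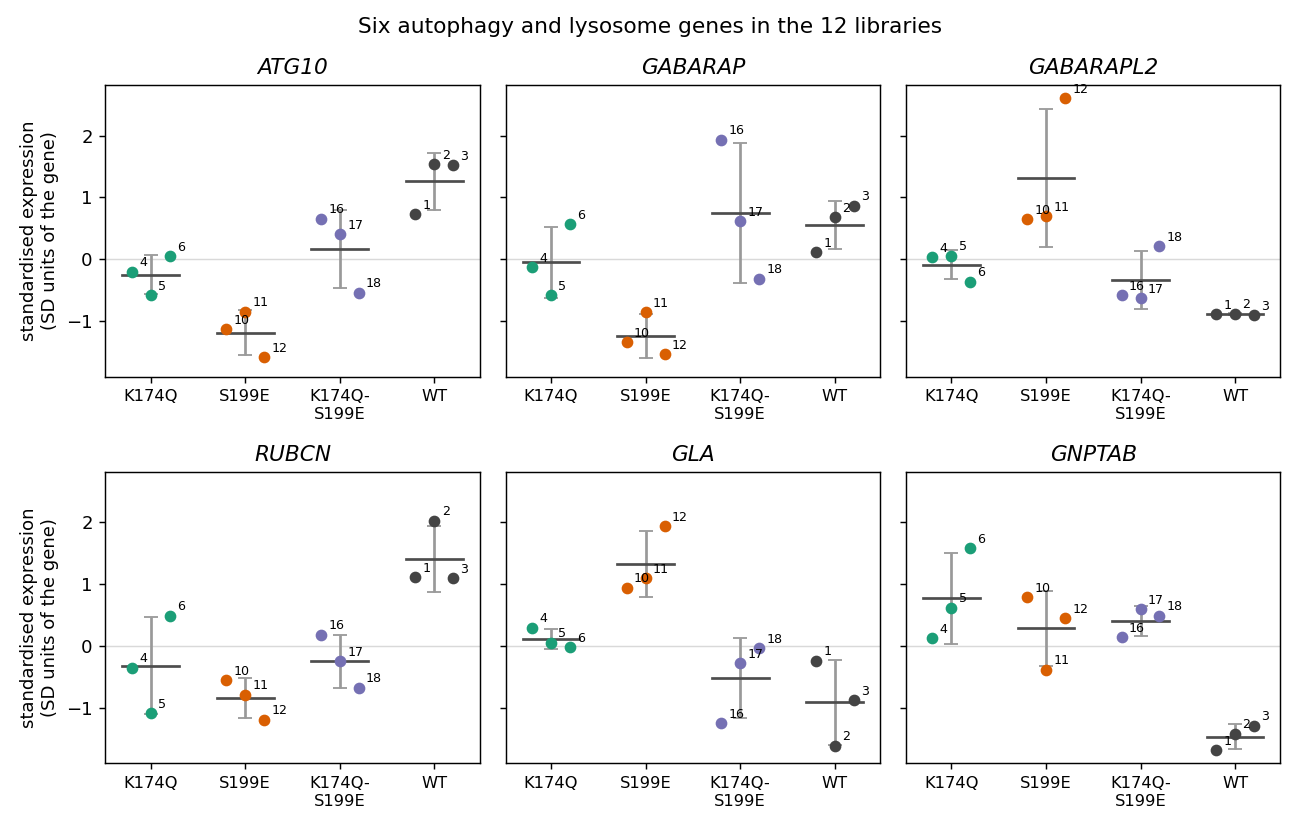
Standardised expression (SD units of the gene, vertical axis) of the 6 genes in the 12 libraries, by construct, with library numbers, the group mean as a line and 1 SD as bars (n = 3). GNPTAB was lowest in the 3 Tau-WT libraries, between -1.69 and -1.29, and ATG10 and RUBCN were highest in them, while GLA and GABARAPL2 were highest in Tau-S199E.

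GABARAP and GABARAPL2 encode ubiquitin-like proteins of the ATG8 family that are coupled to phosphatidylethanolamine on the autophagosome membrane. GABARAP had values of -0.13, -0.58 and 0.56 in Tau-K174Q libraries, -1.34, -0.86 and -1.53 in Tau-S199E, 1.93, 0.61 and -0.31 in Tau-K174Q-S199E, and 0.11, 0.68 and 0.86 in Tau-WT libraries. It was lowest in all 3 Tau-S199E libraries, and the Tau-K174Q-S199E libraries spread from below the lowest Tau-WT library to above the highest. GABARAP fell with Tau-S199E by 1.79 against Tau-WT (SE 0.56, adjusted p = 0.0202 in limma). This call was lost without Tau-S199E library 12 (-1.65, adjusted p = 0.0641), Tau-WT library 2 (-1.73, adjusted p = 0.054) or Tau-WT library 3 (-1.64, adjusted p = 0.0544).

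GABARAPL2 moved the other way. Its values were 0.03, 0.06 and -0.36 in Tau-K174Q libraries, 0.65, 0.69 and 2.61 in Tau-S199E, -0.59, -0.63 and 0.21 in Tau-K174Q-S199E, and -0.89, -0.88 and -0.91 in Tau-WT libraries. The Tau-WT libraries lay close to each other and below the 9 others, and Tau-S199E library 12 stood far above libraries 10 and 11. GABARAPL2 rose with Tau-S199E by 2.21 (SE 0.50, adjusted p = 0.0104 in limma), and by 1.56 without library 12 (adjusted p = 0.0229). With library 18 left out as well, an alternative chosen after the data were seen, the difference was also 1.56 (adjusted p = 0.00339). Its difference from Tau-WT was 0.80 with Tau-K174Q (adjusted p = 0.178) and 0.56 with Tau-K174Q-S199E (adjusted p = 0.571). For GABARAP it was -0.60 with Tau-K174Q (adjusted p = 0.331) and 0.19 with Tau-K174Q-S199E (adjusted p = 0.839, 95% interval -1.10 to 1.49). In GABARAP the group means of Tau-K174Q-S199E, Tau-WT and Tau-K174Q overlapped with their neighbours in order, and in GABARAPL2 those of Tau-K174Q and Tau-K174Q-S199E did.

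RUBCN encodes Rubicon, which binds the class III phosphatidylinositol 3-kinase complex and is known as an inhibitor of autophagosome maturation. Its values were -0.35, -1.09 and 0.49 in Tau-K174Q libraries, -0.55, -0.79 and -1.19 in Tau-S199E, 0.18, -0.25 and -0.68 in Tau-K174Q-S199E, and 1.11, 2.03 and 1.10 in Tau-WT libraries. The 3 Tau-WT libraries were the highest of the 12, and the 3 substituted constructs overlapped one another. RUBCN fell with Tau-S199E by 2.26 (SE 0.45, adjusted p = 0.00981 in limma). The difference from Tau-WT was -1.73 with Tau-K174Q (95% interval -2.76 to -0.70, adjusted p = 0.066) and -1.66 with Tau-K174Q-S199E (95% interval -2.69 to -0.63, adjusted p = 0.533).

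GLA encodes alpha-galactosidase A, the lysosomal hydrolase that is deficient in Fabry disease. It had values of 0.29, 0.05 and -0.02 in Tau-K174Q libraries, 0.94, 1.09 and 1.94 in Tau-S199E, -1.25, -0.28 and -0.04 in Tau-K174Q-S199E, and -0.24, -1.61 and -0.87 in Tau-WT libraries. The Tau-S199E libraries lay above all others, and the Tau-K174Q-S199E and Tau-WT libraries overlapped. GLA rose with Tau-S199E by 2.23 (SE 0.45, adjusted p = 0.00983 in limma). Its difference from Tau-WT was 1.02 with Tau-K174Q (adjusted p = 0.0972) and 0.39 with Tau-K174Q-S199E (adjusted p = 0.629, 95% interval -0.65 to 1.42).

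GNPTAB encodes the alpha and beta subunits of the Golgi phosphotransferase that starts the mannose 6-phosphate tag of lysosomal enzymes, and its loss causes mucolipidosis. Its values were 0.13, 0.62 and 1.58 in Tau-K174Q libraries, 0.79, -0.38 and 0.45 in Tau-S199E, 0.14, 0.59 and 0.49 in Tau-K174Q-S199E, and -1.69, -1.42 and -1.29 in Tau-WT libraries. All 9 libraries of the substituted constructs lay above Tau-WT and overlapped one another. GNPTAB rose with Tau-S199E by 1.75 (SE 0.41, adjusted p = 0.0104 in limma). The difference from Tau-WT was 2.24 with Tau-K174Q (95% interval 1.30 to 3.18, adjusted p = 0.066), the tenth highest of the table, and 1.87 with Tau-K174Q-S199E (95% interval 0.93 to 2.82, adjusted p = 0.533).

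All 6 genes thus passed with Tau-S199E relative to Tau-WT, GABARAPL2, GLA and GNPTAB higher and ATG10, GABARAP and RUBCN lower, where 90.0% of the 1676 genes passed, 48.3% higher and 41.8% lower. The count is near that background, and since the sign of this difference followed that of the deposited contrast in every gene, nothing is read from it. Without library 12, 5 of the 6 genes and 833 of the table passed. The libraries of the 6 genes did not overlap in this comparison, as in 94.2% of the table. Their median difference was -0.02, against 1.41 over the table, with a range from -2.45 for ATG10 to 2.23 for GLA.

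With Tau-K174Q, 0 of the 6 and 0% of the 1676 genes passed, while 870 genes had an unadjusted p under 0.05, ATG10, RUBCN and GNPTAB among them. limma with moderated variances called 59.9% of the table in this comparison and the same 3 of the 6 genes (adjusted p of 0.0214, 0.0116 and 0.00692). A fit on the 6 libraries compared, which called 819 genes, called ATG10 (adjusted p = 0.0329), GNPTAB (adjusted p = 0.0291) and GABARAPL2 (adjusted p = 0.0248). The libraries of 5 genes did not overlap those of Tau-WT, GABARAP being the exception, as in 80.7% of the table. The median difference of the 6 genes was 0.10, against 0.58 over the table. An exact permutation test on the 3 against 3 libraries of any pair of constructs cannot give a two-sided p below 0.1, and it gave 0.1 for these 5 genes and 0.2 for GABARAP.

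**Figure D2:**
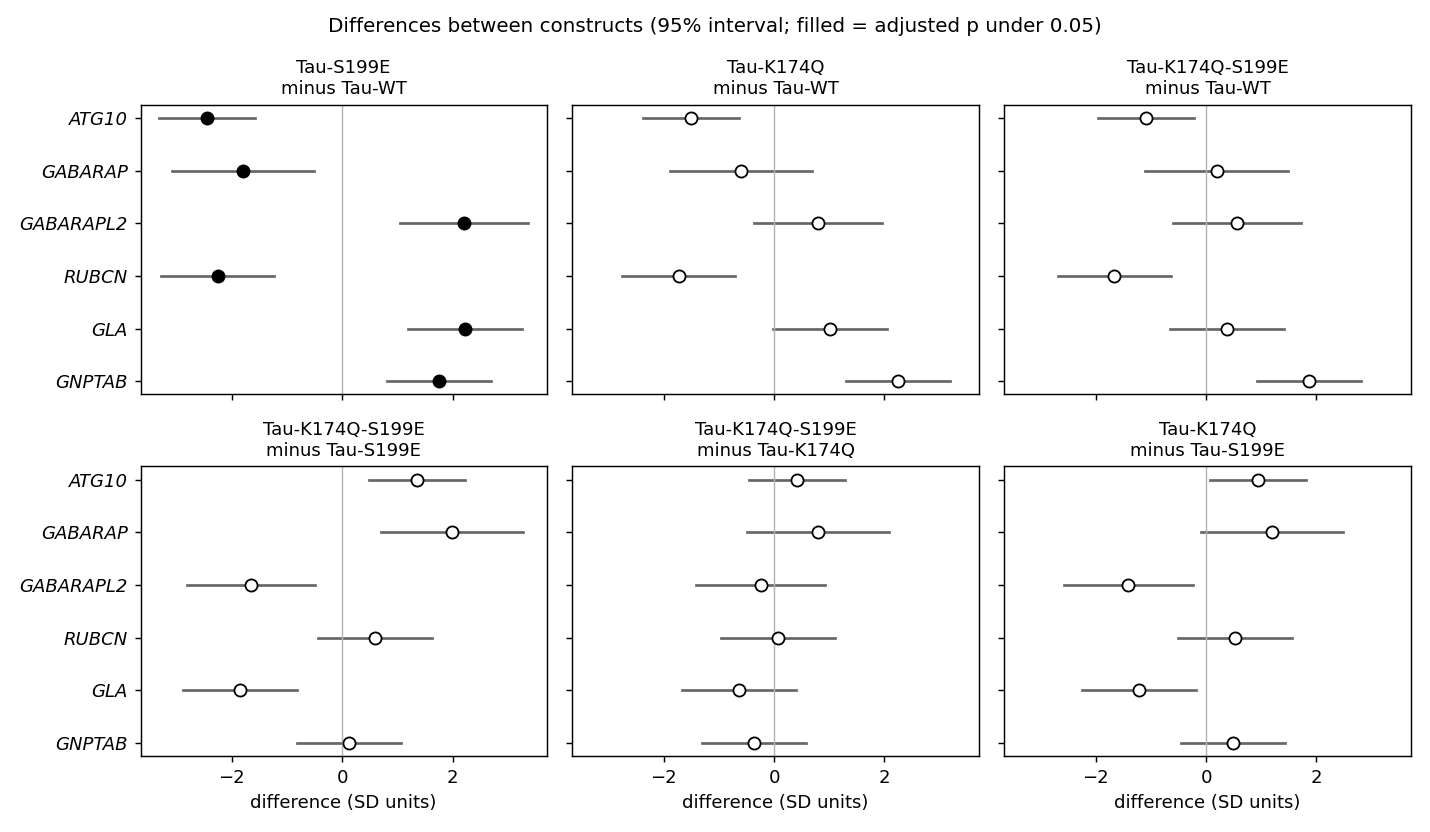
Difference of group means (SD units of the gene, horizontal axis) of the 6 genes in 6 pairs of constructs, the construct named first minus the one named after it, with unadjusted 95% intervals from limma. Filled points passed an adjusted p of 0.05 over the 1676 genes, which the 6 genes did with Tau-S199E against Tau-WT and in no other pair. The adjustment depends on the p-values of all genes in a pair, so an open point does not mean a smaller difference. GNPTAB differed from Tau-WT by 1.75 with Tau-S199E (unadjusted p = 0.00271 in limma). It differed by 2.24 with Tau-K174Q (unadjusted p = 0.000595) and 1.87 with Tau-K174Q-S199E (unadjusted p = 0.00182). In the other genes the Tau-S199E difference was the largest.

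Tau-K174Q-S199E against Tau-WT asks what the protein with both mimics does. In this comparison GNPTAB had the highest difference of the 1676 genes, 1.87, and RUBCN the lowest, -1.66, against quartiles of -0.59 and 0.69 over the table. GNPTAB averaged 0.41 ± 0.24 in Tau-K174Q-S199E and -1.47 ± 0.20 in Tau-WT libraries, and RUBCN -0.25 ± 0.43 in Tau-K174Q-S199E and 1.41 ± 0.53 in Tau-WT libraries (SD, n = 3 each). Neither passed, as 0% of the genes did under ordinary and under moderated variances, with 127 genes at an unadjusted p under 0.05 (0.00182 for GNPTAB and 0.00585 for RUBCN). With 1 of the 6 libraries left out at a time, GNPTAB ranked between 1 and 5 from the top. RUBCN ranked between 2 and 35 from the bottom, 35 without Tau-WT library 2, so that it was the lowest in none of these 6 settings. These are ranks in SD units, which say nothing of the fold size. For ATG10, RUBCN, GABARAPL2 and GNPTAB the Tau-K174Q-S199E and Tau-WT libraries did not overlap, that is in 4 of 6 genes, against 11.6% of the table, 7.28% higher and 4.30% lower, with an exact permutation p = 0.1 for each. The 6 genes were chosen with earlier results of these data known, so nothing is read from this count or from the ranks. The median difference of the 6 genes was 0.29, against 0.20 over the table. GABARAP and GLA overlapped (exact permutation p = 0.9 and 0.6).

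**Figure D3:**
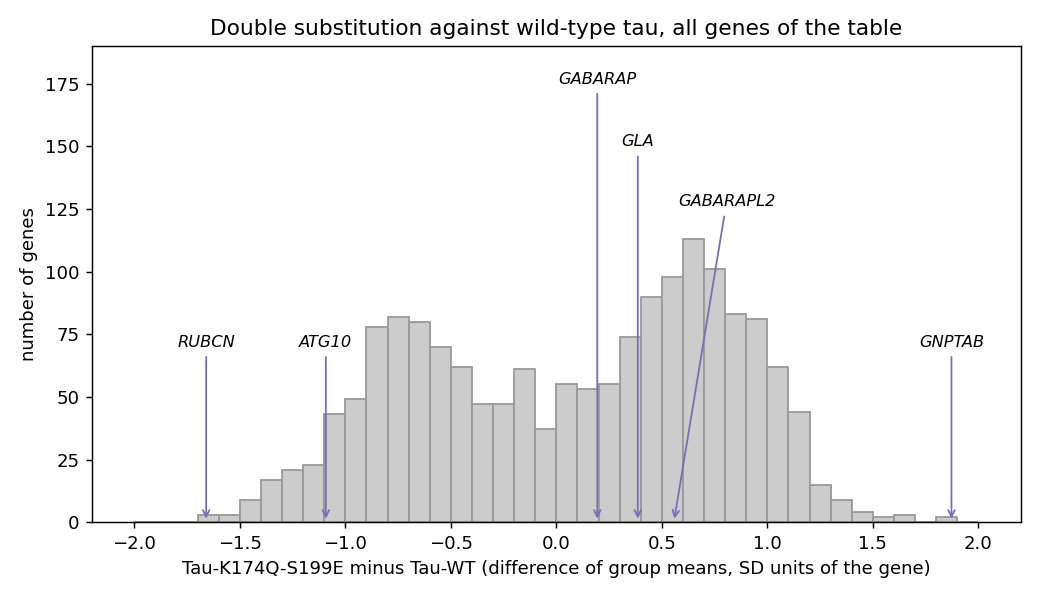
Number of genes (vertical axis) by the difference between the Tau-K174Q-S199E and Tau-WT group means (SD units of the gene, horizontal axis) for the 1676 genes, with arrows at the 6 genes. GNPTAB lies at the upper end, at 1.87, and RUBCN at the lower end, at -1.66.

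The place of a group mean between Tau-WT and Tau-S199E, as a percentage of the difference between these groups counted from Tau-WT, is free of the gene's scale, and the Tau-WT and Tau-S199E libraries enter each such value. Tau-K174Q-S199E stood at 107% for GNPTAB, between 89.8% and 125% with any 1 library left out, and at 73.5% for RUBCN, between 64.0% and 83.1%. The median gene of the table stood at 31.7%, with quartiles of 18.8% and 43.6%. These places rest on the same group means as the ranks above, for genes chosen with earlier results known, so nothing is read from them. The other genes stood lower than RUBCN, ATG10 at 44.6% (30.01% to 54.4%), GABARAPL2 at 25.2% (12.9% to 35.6%) and GLA at 17.3% (1.79% to 33.6%). GABARAP stood at -10.8%, on the far side of Tau-WT, with a range from -40.3% to 22.4% set by libraries 18 and 16. Tau-K174Q stood at 128% for GNPTAB, 76.6% for RUBCN, 61.7% for ATG10, 45.6% for GLA, 36.3% for GABARAPL2 and 33.4% for GABARAP, against 65.7% in the median gene. With 1 library left out GABARAP lay between 18.5% and 50.5%, GABARAPL2 between 31.5% and 51.3%, GLA between 35.4% and 52.9%, ATG10 between 54.8% and 67.7%, RUBCN between 59.6% and 94.4% and GNPTAB between 105% and 149.6%.

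Adding K174Q to Tau-S199E gave differences of 1.99 for GABARAP, 1.36 for ATG10, -1.65 for GABARAPL2 and -1.85 for GLA. Each was against the direction of Tau-S199E minus Tau-WT, as in 1672 of the 1676 genes. The Tau-S199E libraries enter both differences with opposite sign, so nothing is read from these directions. The Tau-K174Q-S199E and Tau-S199E libraries of these 4 genes did not overlap, as in 43.4% of the table. None of the 6 genes passed (adjusted p from 0.0644 to 0.777 in limma), as 0.119% of the genes did. These calls turned on library 18. Without it the 4 genes passed, with differences of 2.52, 1.72, -1.92 and -2.09 for GABARAP, ATG10, GABARAPL2 and GLA (adjusted p from 0.017 to 0.0239), and 1315 genes of the table did. Without library 12 the differences were smaller, 1.84, 1.16, -1.01 and -1.54 for GABARAP, ATG10, GABARAPL2 and GLA (adjusted p from 0.185 to 0.194), and none passed. The median difference of the 6 genes was 0.36, against -0.65 over the table. Moderated variances also called these 4, where they called 68.8% of the table. RUBCN had a difference of 0.60 (95% interval -0.43 to 1.63) and GNPTAB one of 0.12 (95% interval -0.82 to 1.07), and for both genes the libraries overlapped.

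Adding S199E to Tau-K174Q gave differences between -0.63 for GLA and 0.79 for GABARAP, and 0 of the 6 genes passed, as 0% of the table, which had 138 genes at an unadjusted p under 0.05 and 2 called with moderated variances. Without library 18 the table had 142 such calls. Only GLA had libraries that did not overlap in this comparison, as 11.2% of the table did, with Tau-K174Q-S199E lower. Between the single substitutions, Tau-K174Q minus Tau-S199E was 1.19 for GABARAP, 0.94 for ATG10, -1.41 for GABARAPL2 and -1.21 for GLA, with no overlap, as in 36.2% of the table, and 0 of the 6 passed (adjusted p from 0.265 to 0.507), as 0.0597% of the genes did. Without library 12 the difference of GABARAPL2 was -0.76 (adjusted p = 0.538). RUBCN (0.53) and GNPTAB (0.49) overlapped between these constructs. The interaction of the substitutions passed in all 6 genes, as in 97.0% of the table, a count from which nothing is read.

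In the authors' deposited table the log2 fold change of the unnamed contrast was 1.02 for ATG10 (adjusted p = 0.0107), 1.92 for GABARAP (adjusted p = 0.00422), -2.47 for GABARAPL2 (adjusted p = 0.000419), 1.04 for RUBCN (adjusted p = 0.0437), -1.41 for GLA (adjusted p = 0.00199) and -2.72 for GNPTAB (adjusted p = 0.00272). By that adjusted p GABARAPL2 ranked 81 of 1676 genes in the authors' deposited table and RUBCN 1584. The 6 genes fell into all 4 clusters of that table, ATG10 and GABARAP in cluster 1, RUBCN in cluster 2, GNPTAB in cluster 3 and GABARAPL2 and GLA in cluster 4.

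The genes most like each of the 6 over the 12 libraries, among those with a symbol, are given by Pearson's r as a description, since all share libraries and constructs. ATG10 was most like CORO2A (0.99), CAVIN1 (0.98) and MIEF1 (0.97), and RUBCN like EZR (0.93), CAD (0.92) and MIEF1 (0.92). GABARAP was most like TNFAIP8L1 (0.95), NDUFA11 (0.95) and SOX12 (0.95), whereas GABARAPL2 was most like the tubulin gene TUBA1A (0.99), CSTF1 (0.98) and CFAP20 (0.97). GLA was most like ATP5MC3 (0.99), RAN (0.98) and ADGRG1 (0.98). GNPTAB was most like the kinase gene AKT1 (0.84), ZNF638 (0.83) and DYNLT1 (0.82). Its median absolute r with the table was 0.52, the lowest of the 6, where the others had 0.73 to 0.83. Between members, r was strongest at -0.91 for ATG10 and GLA and weakest at -0.24 for GABARAP and GNPTAB. It was 0.90 for ATG10 and RUBCN, 0.89 for GABARAPL2 and GLA, -0.88 for GABARAP and GLA, and -0.80 for GABARAP and GABARAPL2. This last value is near the median absolute r with the table, 0.76 for GABARAP and 0.81 for GABARAPL2.

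Of 197 genes on 9 lists of autophagy and lysosome biology, 30 were in the table, the 6 included. With Tau-S199E 15 of the 30 rose and 13 fell, against the 48.3% and 41.8% of the table, with a median difference of 1.57, against 1.41 over the table. Without library 12, which had the widest spread, 10 rose and 6 fell, with a median of 1.02, where 833 of the 1676 genes passed, 478 of them higher, with a median of 0.96. With library medians subtracted the balance turned, with 11 rises and 14 falls, where 1370 genes passed, 608 of them higher. In that setting MAP1LC3B, RAB7A, NPC2 and CTSL lost their calls and VPS18 passed. The 5 ATG8-conjugation genes in the table split. MAP1LC3B, which encodes LC3B, rose by 1.53 (adjusted p = 0.0376 in limma) with GABARAPL2, and GABARAPL1 fell by 1.65 (adjusted p = 0.0356) with GABARAP and ATG10. The values of MAP1LC3B were 1.32, 1.02 and 0.39 in Tau-K174Q libraries, 0.38, -0.31 and 1.24 in Tau-S199E, -0.59, -1.16 and 0.99 in Tau-K174Q-S199E, and -1.02, -1.05 and -1.21 in Tau-WT libraries. All Tau-K174Q and Tau-S199E libraries of MAP1LC3B lay above Tau-WT. GABARAPL1 was at -0.43, -0.60 and -0.01 in Tau-K174Q libraries, -0.50, -0.43 and -2.13 in Tau-S199E, 1.56, 1.16 and -0.51 in Tau-K174Q-S199E, and 0.58, 0.99 and 0.33 in Tau-WT libraries, with library 12 far below libraries 10 and 11. Without library 12 neither passed, with a difference of 1.13 for MAP1LC3B (adjusted p = 0.124) and -1.10 for GABARAPL1 (adjusted p = 0.115).

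**Figure D4:**
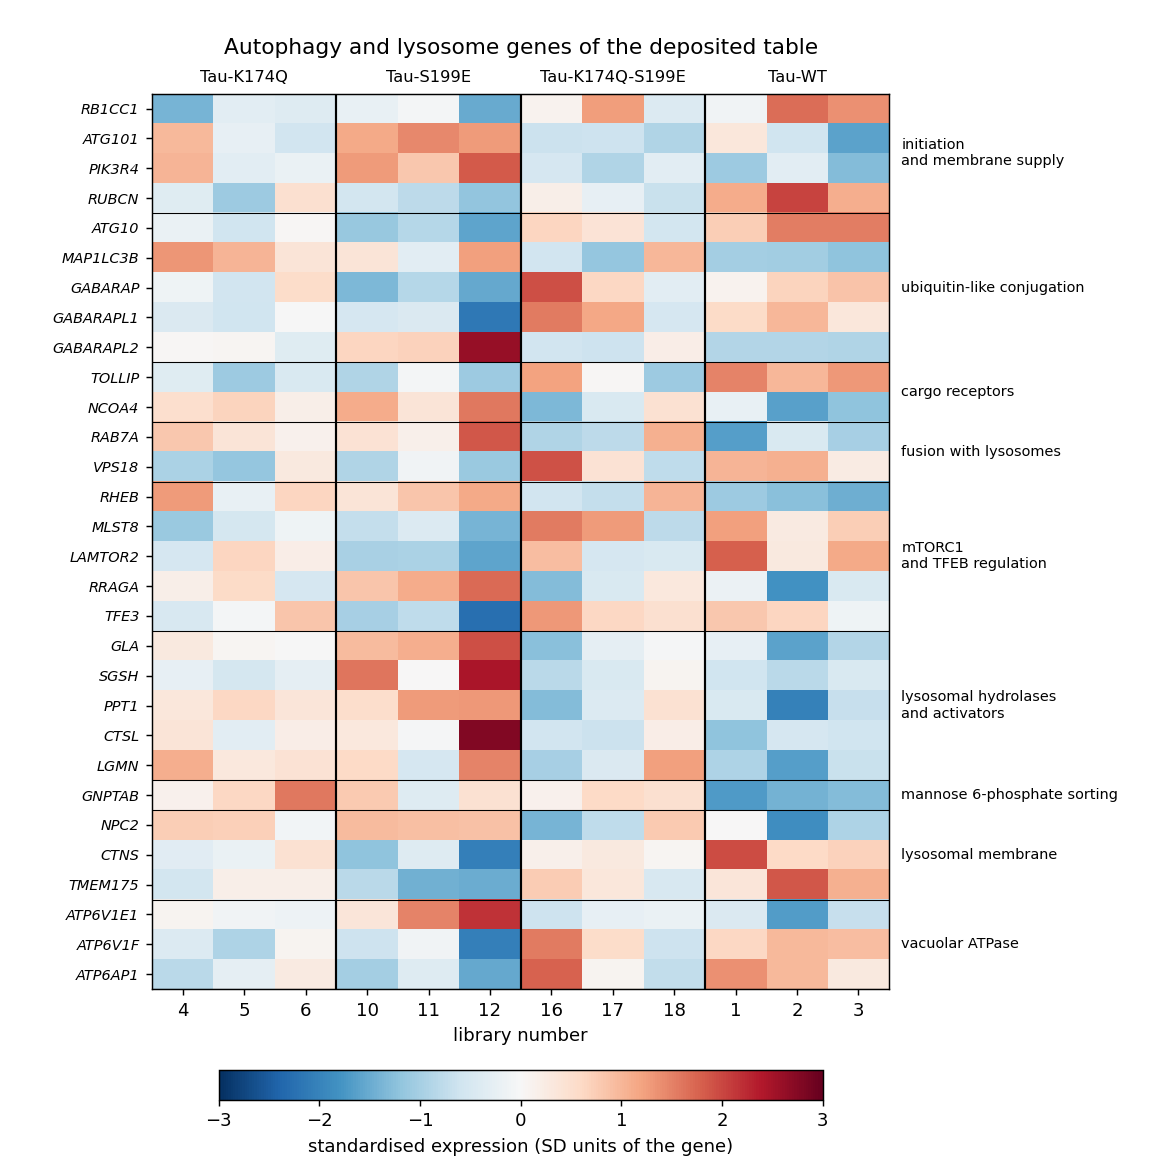
Standardised expression (colour, SD units of the gene) of the 30 listed genes in the table, in rows by list, over the 12 libraries, in columns by construct. GLA, SGSH, PPT1, CTSL and LGMN, the 5 of 47 listed hydrolases and activators in the table, are higher in all Tau-S199E than in all Tau-WT libraries. LGMN did not pass in this comparison (adjusted p = 0.0506 in limma). The other lists with more than 1 gene hold both directions. Tau-S199E and Tau-WT libraries did not overlap in 94.2% of the 1676 genes, counting either direction, so nothing is read from the hydrolase pattern.

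Among genes of autophagosome initiation, PIK3R4, the regulatory subunit of the class III phosphatidylinositol 3-kinase, rose by 2.21 with Tau-S199E (adjusted p = 0.00981 in limma) and ATG101 of the ULK1 complex by 1.90 (adjusted p = 0.0149), while RB1CC1, the scaffold of that complex, fell by 1.58 (adjusted p = 0.0492) with RUBCN. The Tau-S199E and Tau-WT libraries of RB1CC1 overlapped, and it did not pass without library 12 (-1.13, adjusted p = 0.16). ATG101 was at 1.15, 1.44 and 1.27 in Tau-S199E libraries and at -0.65, -0.61 and -0.90 in Tau-K174Q-S199E libraries, a difference of -2.004 that did not pass (adjusted p = 0.0644). The cargo receptor NCOA4, known for ferritin, rose by 2.05 (adjusted p = 0.0133) and the adaptor TOLLIP fell by 1.94 (adjusted p = 0.0159). In fusion, the small GTPase RAB7A rose by 1.85 (adjusted p = 0.0286), and VPS18 of the tethering complexes had a difference of -1.48 that did not pass (adjusted p = 0.07). Without library 12 TOLLIP (-1.73, adjusted p = 0.0543) and RAB7A (1.32, adjusted p = 0.0959) did not pass.

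Among lysosomal hydrolases besides GLA, the sulfamidase SGSH rose by 1.96 with Tau-S199E (adjusted p = 0.0151 in limma), the thioesterase PPT1 by 2.08 (adjusted p = 0.0124) and cathepsin L, CTSL, by 1.80 (adjusted p = 0.0366), and the protease LGMN had a difference of 1.60 (adjusted p = 0.0506). Thus 4 of 5 rose and 0 fell, with a median of 1.96, where 90.0% of the table passed, 48.3% higher, with a median of 1.41, so that nothing is read from this count of 5 genes. The list held 47 hydrolases and activators. Without library 12, 3 of 5 rose, CTSL losing its call (0.93, adjusted p = 0.059), and with library medians subtracted 3 rose as well. With Tau-K174Q-S199E against Tau-S199E the differences of the 5 lay between -1.85 for GLA and -0.59 for LGMN, and 0 passed, but 4 with moderated variances, which called 68.8% of the table, and 3 without library 18, where 1315 of 1676 genes passed, all lower. Of 3 lysosomal membrane and lumen genes the cholesterol carrier NPC2 rose by 1.84 (adjusted p = 0.0261), and the cystine transporter CTNS (-2.30, adjusted p = 0.01) and the ion channel TMEM175 (-2.35, adjusted p = 0.00981) fell. NPC2 did not pass without library 12 (1.85, adjusted p = 0.066).

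Regulators of mTORC1, the kinase complex that represses autophagy, also split. The GTPases RHEB and RRAGA, which activate it, rose by 2.05 (adjusted p = 0.0126 in limma) and 2.03 (adjusted p = 0.0151), while LAMTOR2 of the Ragulator complex (-2.25, adjusted p = 0.0104) and the mTORC1 subunit MLST8 (-1.58, adjusted p = 0.0429) fell. TFE3, a transcription factor of the TFEB family, fell by 1.78 with Tau-S199E (adjusted p = 0.0158). Its values were -0.996, -0.75 and -2.27 in Tau-S199E libraries, 1.29, 0.63 and 0.49 in Tau-K174Q-S199E and 0.81, 0.65 and -0.12 in Tau-WT libraries. Of the vacuolar ATPase, which acidifies the lysosome, subunit ATP6V1E1 rose by 2.27 (adjusted p = 0.01) and ATP6V1F (-1.78, adjusted p = 0.0312) and the accessory ATP6AP1 (-1.87, adjusted p = 0.0281) fell. Without library 12 RRAGA (1.79, adjusted p = 0.0521), MLST8 (-1.30, adjusted p = 0.128), ATP6V1F (-1.22, adjusted p = 0.102) and ATP6AP1 (-1.59, adjusted p = 0.0895) did not pass. In the 5 other pairs of constructs 0 of the 30 genes passed. With moderated variances 15 did with Tau-K174Q against Tau-WT, where 59.9% of the table passed, and 21 with Tau-K174Q-S199E against Tau-S199E, where 68.8% did. Without library 18 this last pair had 23, where 1315 of 1676 genes passed, and nothing is read from these counts.

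The gene annotation in the authors' deposited table gave a list chosen in another way. It marked 21 genes of the table with the term autophagy, ATG10, GABARAP, GABARAPL2 and RUBCN among them, and Tau-S199E gave 9 rises and 8 falls among them, with a median difference of 1.34, where 48.3% of the table rose and 41.8% fell. It marked 44 genes with the term lysosome, GABARAP, RUBCN and GLA among them, with 24 rises and 17 falls and a median of 1.64, against 1.41 over the table. Without library 12 the counts were 4 and 3 for autophagy and 10 and 11 for lysosome, and with library medians subtracted 5 and 9 and 14 and 18. Of all 1676 genes, 833 passed without library 12, 478 higher, and 1370 with medians subtracted, 608 higher. GNPTAB carried neither term.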

How the data were processed

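The labels describe a 3′ mRNA kit and 12 libraries of transfected SH-SY5Y cells. STAR 2.5.3a, RSEM 1.2.31, DESeq2 and GRCh38 appear, without role or order, among the submitters' processing notes. Each library column, as deposited, holds a standardised score per gene, with mean 0 and SD 1 over the libraries as the values show. Per the file headers, a log2 fold change, an adjusted p-value and a cluster number of each gene were deposited as well, and the contrast is not named. The depth is unknown, so no interval or floor for counts is given.

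The values were fitted with limma 3.58.1 (R 4.3.3), by a linear model of construct on the 12 libraries, with ordinary residual variances and Benjamini-Hochberg adjustment over 1676 genes (threshold 0.05, two-sided), after a check on simulated data. Columns were matched to constructs by name; they carry a library number, not the replicate number of a sample. Permutation tests used scipy 1.17.1. Alternatives were moderated variances, only the 6 libraries compared, subtraction of library medians, each library left out and, chosen after the data were seen, libraries 12 and 18 left out together.

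The genes described and the 9 pathway lists were chosen with earlier results of these data known, and the annotated sets after the table was seen. Named genes are the 6, all listed genes in the table, and for each of the 6 the 3 with the highest Pearson's r. A comparison of GABARAP and GABARAPL2 proteins was planned and is not reported, as no protein sequences were used here.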

Additional observations from a re-analysis of the deposited data

Results flagged for a closer look

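The interaction term in limma is the effect of K174Q on Tau-S199E minus its effect on Tau-WT, in SD units. The term passed in all 6 genes. It was 2.87 for ATG10 (adjusted p = 0.0182), 2.59 for GABARAP (adjusted p = 0.02) and 2.33 for RUBCN (adjusted p = 0.0183). It was -2.45 for GABARAPL2 (adjusted p = 0.019), -2.87 for GLA (adjusted p = 0.0182) and -2.12 for GNPTAB (adjusted p = 0.0186). This test was passed by 97.0% of the 1676 genes of the table, and its sign equalled that of the deposited contrast in all 1676. The genes of the table may have been chosen on the interaction, so nothing is read from the count or from these adjusted p-values. In GNPTAB the values behind the interaction are a difference of 2.24 between Tau-K174Q and Tau-WT and one of 0.12 between Tau-K174Q-S199E and Tau-S199E.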

How the results depend on the processing

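The calls of the 6 genes in Tau-S199E against Tau-WT held under moderated variances, the fit on 6 libraries, subtraction of library medians and without libraries 12 and 18 together (chosen after the data were seen), and with 1 library left out except for GABARAP as given. Genes passed in that comparison numbered 833 to 1402 with 1 library left out, 833 without library 12. For Tau-K174Q against Tau-WT 0 genes passed, but 1004 with moderated variances, 819 on 6 libraries and 981 without libraries 12 and 18. For Tau-K174Q-S199E against Tau-WT the count was 0 to 2, 2 without library 16. For Tau-K174Q-S199E against Tau-S199E it was 2, with 1153 under moderated variances, 1 with library medians subtracted, 0 on 6 libraries, 730 without libraries 12 and 18 and 0 to 1315 with 1 left out (0 without library 10 or 16, 6 without 11, 1315 without 18). Against Tau-K174Q it was 0, with 2, 451 and 0 to 142 under moderated variances, without both libraries and with 1 left out. For Tau-K174Q against Tau-S199E it was 1, with 0 under moderated variances and on 6 libraries, 2 without both libraries and 0 to 1 with 1 left out, 0 without library 4, 5, 6 or 10. The cause was not tested. Among small differences the sign turned with 1 library left out for GABARAP in Tau-K174Q-S199E against Tau-WT (-0.40 to 0.72), GNPTAB against Tau-S199E (-0.21 to 0.38), and RUBCN (-0.31 to 0.47) and GNPTAB (-0.69 to 0.034) against Tau-K174Q. Subtracting library medians changed no call or sign of the 6 genes. It moved the median difference of the table to 0.87 for Tau-S199E (1.41 before), 0.25 for Tau-K174Q (0.58) and 0.0059 for Tau-K174Q-S199E (0.20), each against Tau-WT, and to -0.30 for Tau-K174Q-S199E (-0.65) and 0.30 for Tau-K174Q (0.09) against Tau-S199E, and 0.007 for Tau-K174Q-S199E against Tau-K174Q (-0.13). No paired analysis was possible because the columns carry no replicate numbers of the labels.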
